A study of Mus musculus with 6 samples.

Results

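The genes described here are 50 genes of the cell division cycle: 18 that act in G1/S and DNA replication, the 2 D-type cyclins Ccnd1 and Ccnd2, and 30 that act in G2 and mitosis. They were chosen by name, and all 50 have rows among the 18614 genes of the table. The samples are bulk RNA of the mouse subventricular zone (SVZ), where neural stem cells line the lateral ventricle, from animals labelled Zhx2Δ/Δ (KO, 3 libraries) and Zhx2+/+ (WT, 3 libraries). Zhx2 encodes a zinc finger and homeobox transcriptional repressor. The genotype tags of KO 2 and KO 3 name ZHX3 and ZHX4, whereas their titles name ZHX2. The sources used here give neither the strain, age and sex of the mice nor how the deletion was made. Nothing in the labels ties each library to an animal of its own. The p-values below therefore measure the spread among 6 libraries only, part of which may be technical.

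In the SVZ, slowly dividing stem cells give rise to transit-amplifying progenitors that divide fast, and these to neuroblasts that still divide while they migrate. Oligodendrocyte precursors, microglia and endothelial cells can divide there too. As a cell enters the cycle, D cyclins and their kinases inactivate the pocket proteins and free E2F factors, which switch on the genes of DNA replication. Later the MuvB complex with B-Myb and FoxM1 switches on the genes of mitosis. Many of these transcripts are made mainly in cycling cells, but not all of them are. In bulk RNA fewer cells of a type and less RNA per cell cannot be told apart.

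Libraries held 17037152 to 17685906 estimated counts. Zhx2 itself was not lost in any library labelled KO. It had 1139, 1004 and 959 counts in KO 1 to 3, against 735, 675 and 659 counts in WT 1 to 3, and its log2 fold change was 0.61 (SE 0.10, adjusted p = 0.163) with edgeR. The level in each KO library lay above that in each WT library, so the directions below are those of libraries labelled KO against libraries labelled WT. DESeq2 called Zhx2 higher, with an adjusted p of 0.00142 over all 6 libraries and of 0.0016 to 0.029 with a single library left out. Dcx, a microtubule protein that marks neuroblasts, was present, with 34.4, 30.4 and 47.0 CPM in KO 1 to 3, against 40.4, 40.0 and 47.2 CPM in WT 1 to 3, where CPM is the count scaled to library size with TMM factors. Its mean was lower in KO, while the list of 10 neuroblast markers had 6 positive log2 fold changes and a higher mean summed level in KO. Choroid plexus markers set the groups apart: none of 12 had a positive log2 fold change (53.4% of all genes). All 12 were lower in every KO library (8.74% of all genes). DESeq2 called all 12 (2.06% of all genes) and edgeR called 0 (0% of all genes). Their summed level was 326 to 522 CPM in the KO libraries and 5349.9 to 22857 CPM in the WT libraries, with none at 0.

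Promoters of both phases differ in their letters, and 5 are printed to show them. Each RefSeq promoter of GRCm38.p6 ran from 250 bases before to 50 after the start assigned to it. That start, from which distances are counted, is not the outer end of the gene's span for every gene, as in Mki67. These promoters were searched on both strands for 3 motifs. These were the CCAAT box bound by NF-Y (CCAAT), the cell cycle homology region bound by MuvB (CHR, searched as TTTGAA) and the core of the E2F site (GCGGGAA or GCGCGAA or GCGCCAA or GCGGCAA, of which GCGCCAA can overlap a CCAAT box). Each sequence is given 5′ to 3′ on the gene's strand, with matches in capitals. Mcm5 and Cdt1 stand for DNA replication. Plk1, Mki67 and Top2a stand for mitosis, and all 5 were chosen after their matches and values were known.
Mcm5, chr8:75109259-75109558, plus strand: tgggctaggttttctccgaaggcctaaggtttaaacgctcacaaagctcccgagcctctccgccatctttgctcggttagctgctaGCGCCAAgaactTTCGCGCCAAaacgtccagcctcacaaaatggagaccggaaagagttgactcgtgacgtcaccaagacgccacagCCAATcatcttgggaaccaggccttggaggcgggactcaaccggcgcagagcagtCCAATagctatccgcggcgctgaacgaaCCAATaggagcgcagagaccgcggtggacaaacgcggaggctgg
Cdt1, chr8:122567765-122568064, plus strand: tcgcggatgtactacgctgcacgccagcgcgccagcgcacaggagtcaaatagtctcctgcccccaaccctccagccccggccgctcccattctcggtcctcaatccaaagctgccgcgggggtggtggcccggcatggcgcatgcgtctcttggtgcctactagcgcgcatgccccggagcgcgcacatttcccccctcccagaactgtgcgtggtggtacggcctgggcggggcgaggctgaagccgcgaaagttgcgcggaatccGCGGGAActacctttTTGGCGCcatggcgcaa
Plk1, chr7:122159185-122159484, plus strand: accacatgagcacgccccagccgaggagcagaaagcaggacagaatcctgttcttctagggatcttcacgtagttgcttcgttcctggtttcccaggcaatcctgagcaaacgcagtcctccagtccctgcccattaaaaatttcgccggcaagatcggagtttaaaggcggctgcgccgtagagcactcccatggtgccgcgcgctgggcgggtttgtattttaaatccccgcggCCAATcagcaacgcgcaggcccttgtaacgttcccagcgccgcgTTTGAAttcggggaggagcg
Mki67, chr7:135716330-135716629, minus strand: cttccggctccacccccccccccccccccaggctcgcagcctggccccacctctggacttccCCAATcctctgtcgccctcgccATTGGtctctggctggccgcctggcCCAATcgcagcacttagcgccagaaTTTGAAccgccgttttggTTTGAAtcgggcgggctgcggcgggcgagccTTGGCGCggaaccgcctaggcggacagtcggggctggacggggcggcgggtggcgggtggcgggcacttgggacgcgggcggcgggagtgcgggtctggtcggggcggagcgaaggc
Top2a, chr11:99024140-99024439, minus strand: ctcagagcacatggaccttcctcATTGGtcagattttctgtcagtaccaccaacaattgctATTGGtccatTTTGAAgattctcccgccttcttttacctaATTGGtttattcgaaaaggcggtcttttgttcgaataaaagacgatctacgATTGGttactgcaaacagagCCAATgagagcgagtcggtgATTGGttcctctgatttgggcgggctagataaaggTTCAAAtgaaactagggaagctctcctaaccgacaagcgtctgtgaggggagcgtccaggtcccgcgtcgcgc

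Mcm5 held 3 E2F matches, which lie between 164 and 143 bases before the start, and 3 CCAAT boxes. Cdt1 held 2 E2F matches, both after the start, and neither of the other motifs. In Plk1 a CCAAT box stands 14 bases before the start and a CHR begins 31 bases after it. Mki67 held 3 CCAAT boxes, 2 CHR matches and 1 E2F match, and Top2a held 6 CCAAT boxes and 2 CHR matches.

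Of the 30 G2/M members, 24 had a promoter in the RefSeq table, and of these 18 (75.0%) held a CHR match. Of the 18 S phase members 15 had one, and 2 of these (13.3%) held a CHR match, against 18.1% of all 27025 genes in the table. E2F cores were in 5 of the 24 G2/M promoters (20.8%) and in 8 of the 15 S phase promoters (53.3%), against 9.69% of all genes. CCAAT boxes were in 20 G2/M promoters (83.3%) and 9 S phase promoters (60.0%), against 37.9%. Where a gene had 2 promoters, the first in the table was counted. A match describes these letters only.

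**Figure D1:**
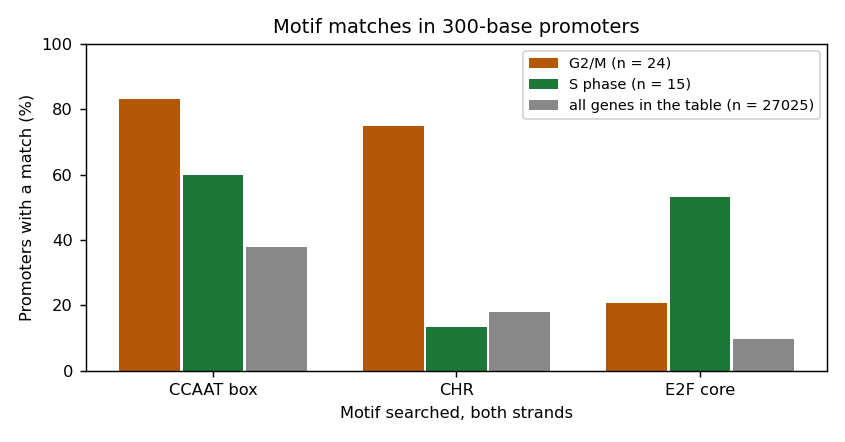
Share of 300-base promoters with at least 1 match to each motif, in % (vertical axis), for the G2/M members, the S phase members and all genes of the RefSeq promoter table. CHR matches stand at 75.0% of G2/M promoters and 13.3% of S phase promoters, and E2F cores at 20.8% of G2/M promoters and 53.3% of S phase promoters.

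Whether the libraries labelled KO differ from WT in cell division was asked first over all members. No member passed: edgeR's quasi-likelihood test called 0 of the 49 members tested at an adjusted p of 0.05, as it called 0 of all 15126 genes (0%). DESeq2 also called 0 members, where it called 2.06% of all genes (0.0397% higher and 2.02% lower in KO), and limma-voom called 0 members and 0 genes (0%). At an unadjusted p under 0.05 edgeR had 1 member higher (2.68% of all genes) and 0 lower (6.39% of all genes). Of the 49, 33 had a positive log2 fold change, as did 53.4% of all genes. Their log2 fold changes ran from -0.29 to 0.92.

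In these members the WT libraries differed more among themselves than the KO libraries did. The median SD of log2 CPM of G2/M members was 0.25 in the KO libraries and 0.57 in the WT libraries, against 0.18 and 0.19 over all genes tested. For S phase members it was 0.25 in the KO libraries and 0.41 in the WT libraries. Lists of other genes went both ways. Striatal projection neuron markers had 0.24 in the KO libraries and 2.13 in the WT libraries, and oligodendrocyte markers had 0.58 and 0.04. The members' median CPM, which sets the counting depth, was 3.42 against 26.7 over all genes, and the part of low counts in this spread was not tested. WT 2 was the highest WT library for 29 of 29 G2/M members tested (36.8% of all genes) and WT 1 the lowest for 21 of them (39.1% of all genes). All 3 KO libraries lay between the lowest and the highest WT library for 17 of the 29 (20.9% of all genes).

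**Figure D2:**
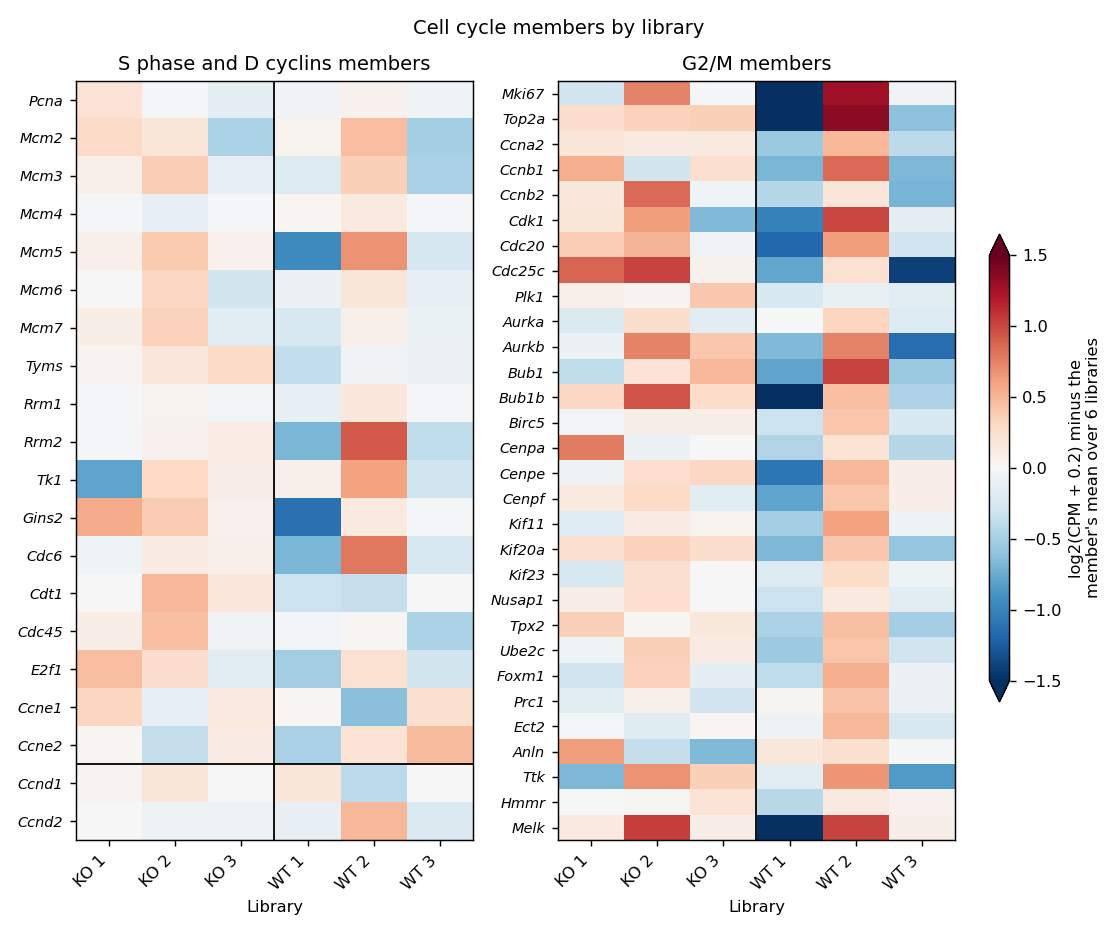
Level of each of the 50 members (rows) in each library (columns, KO left of WT), as log2(CPM + 0.2) minus the member's mean over the 6 libraries. Colours saturate at 1.5. The column of WT 2 is high and that of WT 1 low for most G2/M members, and all 3 KO libraries lie between the lowest and the highest WT library for 17 of the 29 tested.

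Mki67, whose product Ki-67 coats mitotic chromosomes and marks cycling cells (NCBI gene 17345, chromosome 7 of mm10, 135689784 to 135716450), had 4.71, 9.85 and 5.70 CPM in KO 1 to 3, against 1.73, 14.3 and 5.57 CPM in WT 1 to 3. Behind these levels stood 80, 171 and 97 counts in KO 1 to 3, against 32, 238 and 96 counts in WT 1 to 3. WT 2 was the highest and WT 1 the lowest of the 6 libraries, 8.25-fold apart, with every KO library in between. The log2 fold change was -0.09 (SE 0.71, adjusted p = 0.983) with edgeR, and it ran from -0.55 to 0.89 with a single library left out.

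Top2a encodes the topoisomerase that untangles sister chromatids (NCBI gene 21973, chromosome 11 of mm10, 98992947 to 99024199). It had 6.24, 6.62 and 6.69 CPM in KO 1 to 3, against 1.46, 13.6 and 3.31 CPM in WT 1 to 3. The KO libraries lay within 1.07-fold of each other, while WT 2 stood 9.28-fold above WT 1. The edgeR log2 fold change was 0.10 (SE 0.73, adjusted p = 0.981). Without WT 2 it was 1.45 and was called by DESeq2 (adjusted p = 0.0278), in a fit that called 106 genes higher. Without WT 1 it was -0.37 with edgeR.

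Summed over all 18 S phase members, the level was 209.9, 212.1 and 194.9 CPM in KO 1 to 3, against 168.3, 212.1 and 183.4 CPM in WT 1 to 3. WT 2 matched the highest KO library, and WT 1 and WT 3 lay below all KO libraries. Log2 fold changes were positive in 11 of the 18 (53.4% of all genes) and negative in 7. Their median was 0.12, against 0.02 over all genes. That median was 0.01 without WT 1 and 0.32 without WT 2.

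Among enzymes that make DNA building blocks, Tyms had the smallest p of all members. Tyms encodes thymidylate synthase (NCBI gene 22171, chromosome 5 of mm10, 30038546 to 30073645). It had 42.6, 46.9 and 50.9 CPM in KO 1 to 3, against 32.3, 40.1 and 39.2 CPM in WT 1 to 3. The groups did not overlap, and the log2 fold change was 0.33 (SE 0.12, adjusted p = 0.505) with edgeR. A two-sided exact permutation test gave p = 0.1, below which a design of 3 against 3 libraries cannot go. Rrm1 and Rrm2, the subunits of ribonucleotide reductase, had log2 fold changes of -0.02 and -0.08. Rrm2 was highest in WT 2 and lowest in WT 1, with 51, 56 and 57 counts in KO 1 to 3, against 34, 100 and 40 counts in WT 1 to 3. Tk1, thymidine kinase, had a log2 fold change of -0.29 with 6, 17 and 14 counts in KO 1 to 3, against 15, 21 and 10 counts in WT 1 to 3.

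The replicative helicase is built from Mcm2 to Mcm7, loaded by Cdc6 and Cdt1 and activated with Cdc45 and the GINS complex. Its 6 Mcm subunits had log2 fold changes between -0.11 (Mcm4) and 0.22 (Mcm5). Mcm4 was the 1 member that was lower in every KO library, with 290, 276 and 290 counts in KO 1 to 3, against 325, 320 and 295 counts in WT 1 to 3. That difference was small: its log2 fold change was -0.11 (SE 0.11, adjusted p = 0.788) with edgeR. Mcm7, with 17.9, 21.4 and 14.9 CPM in KO 1 to 3, against 14.2, 17.8 and 15.7 CPM in WT 1 to 3, overlapped between groups and had a log2 fold change of 0.19 (SE 0.17). Mcm5, whose promoter is printed above, had 6.83, 8.52 and 6.75 CPM in KO 1 to 3, against 3.25, 10.4 and 5.39 CPM in WT 1 to 3, a 3.20-fold difference between WT 2 and WT 1.

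The licensing factor Cdt1 was the other S phase member higher in every KO library. It had 1.83, 2.65 and 2.06 CPM in KO 1 to 3, against 1.41, 1.38 and 1.80 CPM in WT 1 to 3, on 23 to 46 counts a library. The log2 fold change was 0.51 (SE 0.28, adjusted p = 0.638) with edgeR. Its partner in loading, Cdc6, had a log2 fold change of -0.05. Cdc45, the helicase cofactor, had 2.18, 2.82 and 1.94 CPM in KO 1 to 3, against 1.95, 2.04 and 1.39 CPM in WT 1 to 3, so that the groups overlapped, with a log2 fold change of 0.37 (SE 0.28). Gins2, a GINS subunit, had 28, 25 and 19 counts in KO 1 to 3, against 7, 20 and 18 counts in WT 1 to 3. WT 1 was its lowest library, and its log2 fold change of 0.68 (SE 0.46) was the largest among S phase members. Gins2 has 1 transcript in the table but non-whole counts, as where reads are shared with another entry, and its level is uncertain.

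Regulators of the G1/S step gave no common direction. E2f1, an activator of replication genes, had 12.7, 11.0 and 8.22 CPM in KO 1 to 3, against 6.33, 10.8 and 7.54 CPM in WT 1 to 3 and a log2 fold change of 0.37 (SE 0.25, adjusted p = 0.705) with edgeR. The E cyclins, which activate Cdk2, had values of opposite sign: log2 fold changes were 0.20 for Ccne1 and -0.18 for Ccne2, and neither passed. Ccne1 ran against the mitotic genes in WT, with 10.8, 7.89 and 9.57 CPM in KO 1 to 3, against 8.82, 5.52 and 10.2 CPM in WT 1 to 3, so that WT 2 was its lowest library.

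Pcna, the sliding clamp of DNA polymerases, was the member with the highest level per length. It had 31.3 ± 3.54 FPKM in the KO libraries and 30.9 ± 0.993 FPKM in the WT libraries (SD, n = 3 each). On the CPM scale it had 44.8, 38.0 and 35.0 CPM in KO 1 to 3, against 37.0, 40.3 and 36.8 CPM in WT 1 to 3. KO 1 was the highest and KO 3 the lowest of all 6, and the WT libraries lay within 1.09-fold of each other. Between groups its log2 fold change was 0.05 (SE 0.12, adjusted p = 0.932) with edgeR.

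The D cyclins, which couple growth signals to cycle entry through Cdk4 and Cdk6, came after Pcna and Anln in level per length among all members, and neither passed the test. Ccnd2 had 16.9 ± 0.295 FPKM in the KO libraries and 19.0 ± 5.05 FPKM in the WT libraries, and Ccnd1 had 12.2 ± 0.921 FPKM in the KO libraries and 11.4 ± 2.57 FPKM in the WT libraries (SD, n = 3 each). On the CPM scale Ccnd2 had 106, 101 and 101 CPM in KO 1 to 3, against 98.3, 151 and 91.7 CPM in WT 1 to 3. WT 2 stood above the other 5 libraries, and the KO libraries lay within 1.05-fold of each other. Ccnd1 had 45.8, 50.5 and 44.6 CPM in KO 1 to 3, against 50.5, 34.0 and 44.8 CPM in WT 1 to 3, with WT 2 the lowest library. Log2 fold changes were -0.14 (SE 0.20, adjusted p = 0.852) for Ccnd2 and 0.12 (SE 0.16, adjusted p = 0.840) for Ccnd1 with edgeR. Both changed sign without WT 2, to 0.10 for Ccnd2 and -0.03 for Ccnd1.

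Of the 30 G2/M members, 29 passed the filter on low counts. Of these 29, 21 had a positive log2 fold change (53.4% of all genes) and 8 a negative one. Their median of 0.21 compares with 0.02 over all genes. It rested on single WT libraries: it was -0.08 without WT 1 and 0.66 without WT 2. It was 0.32 with limma-voom. It was also 0.04 with KO 1 alone against WT, 0.09 without KO 2 and 0.11 without WT 3. With genes under a mean of 5 CPM in both groups left out it was 0.01, over only 8 G2/M members. Without Anln, the summed level was 87.7, 104.7 and 90.2 CPM in KO 1 to 3, against 55.4, 128.6 and 71.6 CPM in WT 1 to 3. Leaving out Anln was chosen after seeing that it held the largest share of the sum and had another order of libraries.

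**Figure D3:**
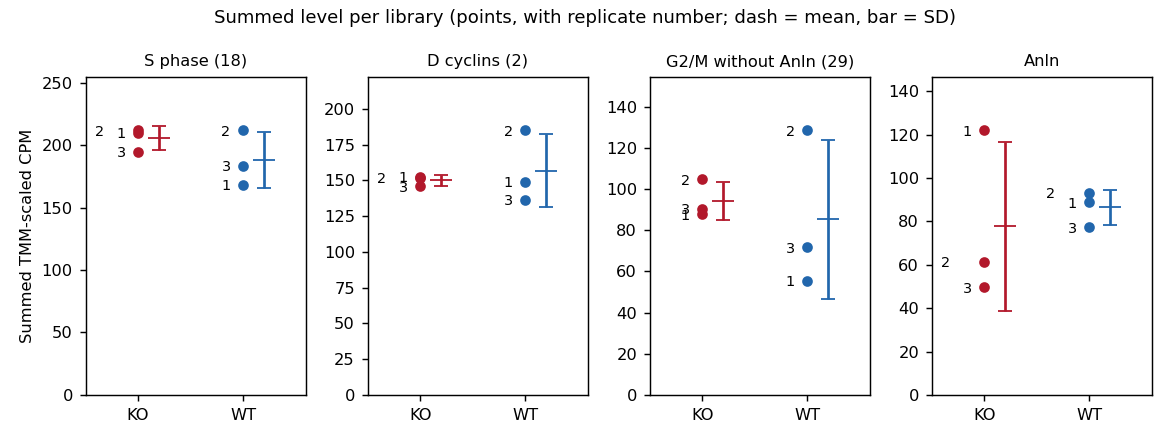
Summed TMM-scaled CPM per library (points, numbered by replicate; dash, mean; bar, SD) for the S phase members, the D cyclins, the G2/M members without Anln, and Anln alone, KO left of WT. For G2/M without Anln, WT 2 lies above and WT 1 and WT 3 lie below the 3 KO libraries.

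Plk1, the mitotic kinase that drives spindle formation and mitotic entry (NCBI gene 18817, chromosome 7 of mm10, 122159435 to 122169884), was the G2/M member with the smallest p and the 1 whose groups did not overlap. It had 3.65, 3.57 and 4.64 CPM in KO 1 to 3, against 2.92, 3.18 and 3.08 CPM in WT 1 to 3. The WT libraries lay within 1.09-fold of each other, unlike those of most G2/M members. Its log2 fold change was 0.37 (SE 0.21, adjusted p = 0.648) with edgeR, 0.24 to 0.44 with a single library left out. Over S phase and G2/M members and D cyclins together, 3 of 49 were higher in every KO library (8.0% of all genes) and 1 was lower (8.74% of all genes).

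The mitotic cyclins and their kinase had wide spreads on low counts. Ccnb2, a mitotic cyclin, had 17, 30 and 14 counts in KO 1 to 3, against 11, 17 and 8 counts in WT 1 to 3, with KO 2 highest. The fitted log2 fold change was 0.77 (SE 0.46, adjusted p = 0.661) with edgeR. Ccnb1 had 0.21 (SE 0.55), Ccna2 had 0.23 (SE 0.30) and Cdk1 had -0.03 (SE 0.69) as log2 fold changes. In each of these 3 genes WT 2 was the highest and WT 1 the lowest of the 6 libraries. Cdc25c, the phosphatase that activates Cdk1, was not tested, with 13, 15 and 6 counts in KO 1 to 3, against 2, 7 and 0 counts in WT 1 to 3. A library with 0 counts allows up to 3 counts, which is 0.174 CPM in WT 3, for counting error only.

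Genes of the spindle checkpoint and the kinetochore were led by Bub1b. Bub1b, the checkpoint kinase BubR1, had 2.42, 3.86 and 2.35 CPM in KO 1 to 3, against 0.541, 2.70 and 1.33 CPM in WT 1 to 3. Its log2 fold change was 0.92 (SE 0.55, adjusted p = 0.666) with edgeR, the largest of all members, and 0.51 to 1.61 with a single library left out. WT 1, with 10 counts, was its lowest library, and WT 2 lay between the KO libraries. Cenpa, the centromeric histone, had 2.65, 1.38 and 1.47 CPM in KO 1 to 3, against 1.03, 1.74 and 1.04 CPM in WT 1 to 3 and a log2 fold change of 0.53 (SE 0.39), with KO 1 highest. Bub1, Ttk, Cenpe and Cenpf, which also act in chromosome attachment and its surveillance, had log2 fold changes between 0.05 and 0.27. Cdc20, the activator of the anaphase-promoting complex, had 0.44, and Ube2c, its ubiquitin-conjugating enzyme, had 0.25. Ube2c had 54, 75 and 62 counts in KO 1 to 3, against 41, 75 and 46 counts in WT 1 to 3, and its groups overlapped. It had the highest level per length among G2/M members other than Anln, with 4.06 ± 0.682 FPKM in the KO libraries and 3.44 ± 1.24 FPKM in the WT libraries (SD, n = 3 each). None of these passed.

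Spindle motors and midzone proteins had values of both signs, and none passed. Kif20a, a cytokinesis motor, had 2.71, 2.94 and 2.76 CPM in KO 1 to 3, against 1.35, 3.06 and 1.45 CPM in WT 1 to 3. Its 3 KO libraries lay close to WT 2 and above WT 1 and WT 3, and its log2 fold change was 0.52 (SE 0.36, adjusted p = 0.706) with edgeR. Tpx2, an activator of Aurora A at the spindle, had 6.54, 5.13 and 5.64 CPM in KO 1 to 3, against 3.57, 6.96 and 3.48 CPM in WT 1 to 3 and a log2 fold change of 0.31 (SE 0.31). WT 2 was its highest library, and WT 1 and WT 3 lay below all KO libraries. Nusap1, a spindle-associated microtubule binder, had 3.42, 3.80 and 3.17 CPM in KO 1 to 3, against 2.49, 3.54 and 2.79 CPM in WT 1 to 3 and a log2 fold change of 0.24 (SE 0.23). Prc1, which bundles midzone microtubules, had 5.18, 6.11 and 4.70 CPM in KO 1 to 3, against 5.95, 7.86 and 5.45 CPM in WT 1 to 3. Its log2 fold change of -0.27 (SE 0.21) was the lowest among G2/M members, and it stayed negative with each library left out (-0.38 to -0.11). The motor gene Kif11 had -0.07, and Kif23, a motor of the central spindle, had a log2 fold change nearest to 0 of all members.

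The Aurora kinases Aurka and Aurkb had log2 fold changes of -0.08 and 0.62, and Birc5, the survivin subunit that works with Aurkb, had 0.06. Foxm1, the transcription factor of mitotic genes, had -0.08. Ect2, an exchange factor that starts cytokinesis, had -0.17, Hmmr, a spindle protein, had 0.13, and Melk had 0.42. Melk, a kinase of dividing progenitors, had 27, 54 and 26 counts in KO 1 to 3, against 2, 51 and 26 counts in WT 1 to 3, the widest difference between WT libraries of any member counted in all 6. Levels of Kif11, Ube2c and Foxm1 are uncertain too, since each has 1 transcript and non-whole counts. Summed counts were also non-whole for members with several transcripts: Tyms, Mcm5, E2f1, Ccne2, Ccnd1, Ccna2, Birc5, Cenpf, Kif20a, Nusap1, Tpx2, Prc1, Anln and Hmmr. How far this moves their levels was not tested.

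**Figure D4:**
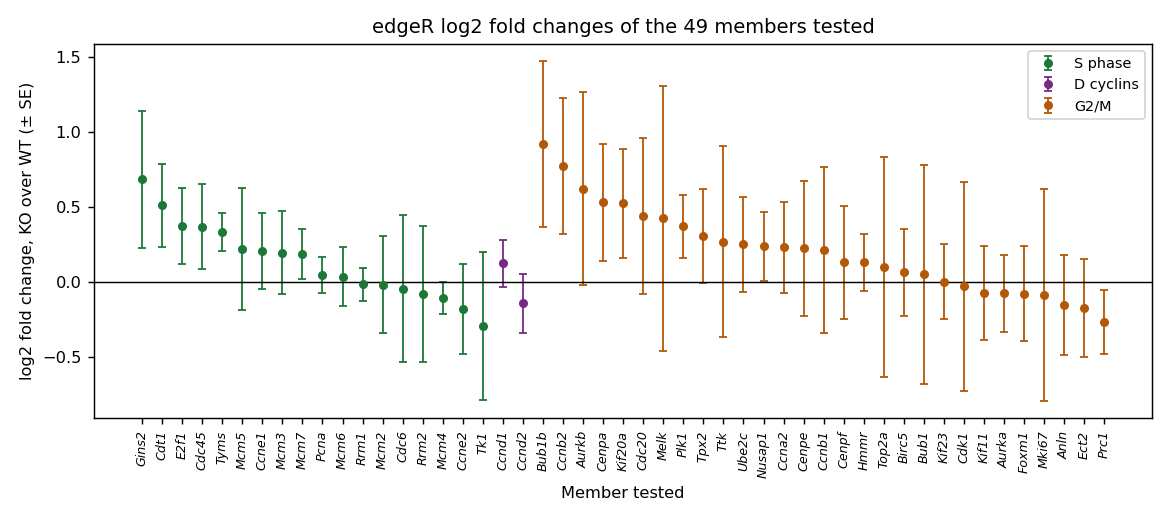
edgeR log2 fold changes, KO over WT, with their SE, for the 49 members tested, grouped by phase and sorted within it. Bub1b (0.92) is highest and Tk1 (-0.29) lowest, and none passed an adjusted p of 0.05.

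Anln, which encodes the actin-binding protein anillin of the cytokinetic ring, is also made by myelinating oligodendrocytes. It was far above the other G2/M members per length, with 19.1 ± 9.52 FPKM in the KO libraries and 20.6 ± 1.76 FPKM in the WT libraries (SD, n = 3 each). On the CPM scale it had 122, 61.4 and 49.6 CPM in KO 1 to 3, against 88.8, 93.2 and 77.3 CPM in WT 1 to 3. KO 1 was highest, KO 3 lowest, and the WT libraries lay close together between them. The 8 oligodendrocyte markers had the same order in KO and were also close together in WT, with a summed level of 18908.6, 11219.1 and 8191.9 CPM in KO 1 to 3, against 13695.3, 13549.7 and 13452.7 CPM in WT 1 to 3, none of them at 0, and 1 of 8 with a positive log2 fold change. Their part in the Anln result was not tested. Anln had a log2 fold change of -0.15 (SE 0.33, adjusted p = 0.914) with edgeR. Without KO 1 it was called lower by DESeq2 (-0.66, adjusted p = 0.0389), in a fit that called 263 genes lower. With KO 1 alone against WT it was 0.50.

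**Figure D5:**
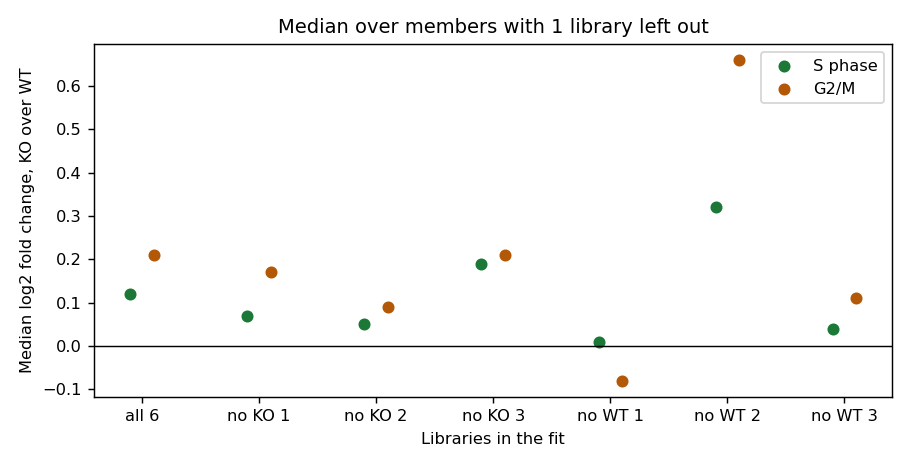
Median log2 fold change, KO over WT, of the S phase and the G2/M members (vertical axis) in edgeR fits with all 6 libraries and with 1 library left out (horizontal axis). The G2/M median is -0.08 without WT 1, 0.66 without WT 2 and 0.21 with all 6.

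Other genes of the cycle were read from 4 further lists. Of 39 tested among 40 other mitosis genes, 29 had a positive log2 fold change (53.4% of all genes). The median was 0.14, against 0.02 over all genes. Neither edgeR (0% of all genes) nor DESeq2 (2.06% of all genes) called any. At an unadjusted p under 0.05, 1 was higher (2.68% of all genes) and 0 were lower (6.39% of all genes). The order of libraries was that of the G2/M members. WT 2 was the highest WT library in 35 of 39 (36.8% of all genes) and WT 1 the lowest in 28 (39.1% of all genes). The summed level was 248.4, 248.6 and 236.4 CPM in KO 1 to 3, against 184.8, 263.6 and 215.1 CPM in WT 1 to 3. Spc25, a kinetochore subunit, had 28, 36 and 26 counts in KO 1 to 3, against 9, 22 and 10 counts in WT 1 to 3. Its groups did not overlap, and its log2 fold change was 1.14 (SE 0.44, adjusted p = 0.511) with edgeR. It was the 1 gene of the 39 higher in every KO library (8.0% of all genes), and 0 were lower (8.74% of all genes). Espl1, the protease separase, had 27, 37 and 32 counts in KO 1 to 3, against 44, 58 and 36 counts in WT 1 to 3 and a log2 fold change of -0.50 (SE 0.29), and WT 2 was its highest library. Its inhibitor Pttg1, securin, overlapped between groups, with 524, 481 and 426 counts in KO 1 to 3, against 405, 434 and 422 counts in WT 1 to 3 and a log2 fold change of 0.21 (SE 0.12).

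Among 32 other DNA replication genes the median was 0.09 and 23 values were positive (53.4% of all genes). Neither edgeR (0% of all genes) nor DESeq2 (2.06% of all genes) called any. At an unadjusted p under 0.05, 0 were higher (2.68% of all genes) and 0 lower (6.39% of all genes). Rfc3, a clamp loader subunit, had 5.66, 7.43 and 6.87 CPM in KO 1 to 3, against 4.87, 5.58 and 4.47 CPM in WT 1 to 3, and its groups did not overlap. Fen1, the flap endonuclease of the lagging strand, did not overlap either, with 12.9, 10.1 and 9.87 CPM in KO 1 to 3, against 8.77, 9.48 and 8.47 CPM in WT 1 to 3. Their log2 fold changes were 0.42 (SE 0.19, adjusted p = 0.575) and 0.30 (SE 0.16, adjusted p = 0.630) with edgeR, and neither passed. Gins3, a GINS subunit, was lower in every KO library, with 39, 37 and 40 counts in KO 1 to 3, against 48, 50 and 43 counts in WT 1 to 3. Of this list 2 genes were thus higher in every KO library (8.0% of all genes) and 1 was lower (8.74% of all genes). Orc1, an origin factor, overlapped between groups, with 12, 21 and 14 counts in KO 1 to 3, against 32, 15 and 25 counts in WT 1 to 3 and a log2 fold change of -0.57 (SE 0.38).

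Among 18 E2F, pocket protein and MuvB genes the median log2 fold change was -0.13 and 6 values were positive (53.4% of all genes). Neither edgeR (0% of all genes) nor DESeq2 (2.06% of all genes) called any. Lin37, a MuvB subunit, was higher in every KO library, with 22.6, 25.5 and 19.7 CPM in KO 1 to 3, against 16.1, 18.7 and 18.6 CPM in WT 1 to 3 and a log2 fold change of 0.34 (SE 0.13, adjusted p = 0.519) with edgeR. It was the 1 gene of this list at an unadjusted p under 0.05 (2.68% of all genes higher and 6.39% lower). The pocket protein gene Rbl2 was lower in every KO library, with 67.0, 65.7 and 75.0 CPM in KO 1 to 3, against 79.1, 78.9 and 75.3 CPM in WT 1 to 3, as was the MuvB subunit gene Lin9, with 3.30, 2.53 and 3.41 CPM in KO 1 to 3, against 4.49, 3.84 and 3.65 CPM in WT 1 to 3. Neither passed, with log2 fold changes of -0.17 (SE 0.09) and -0.38 (SE 0.22). In this list 1 gene was higher in every KO library (8.0% of all genes) and 2 were lower (8.74% of all genes).

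Among 17 tested of 18 cyclin-dependent kinase, cyclin D3 and inhibitor genes, 8 had a positive log2 fold change (53.4% of all genes) and the median was -0.01. With edgeR 0 were called (0% of all genes). DESeq2 called 1, Cdkn1c, as lower (2.02% of all genes). Cdkn1c, which encodes the kinase inhibitor p57, had 6.95, 7.37 and 4.40 CPM in KO 1 to 3, against 35.0, 31.6 and 13.1 CPM in WT 1 to 3. Every KO library lay below every WT library, and WT 3 was the lowest WT library. With edgeR the log2 fold change was -2.09 (SE 0.41, adjusted p = 0.2). DESeq2 called it lower (-2.10, adjusted p = 3.89e-05) and also in all 6 fits with a single library left out, which called 139 to 451 genes each. Without WT 3 edgeR called it too (-2.41, adjusted p = 0.0154), in a fit that called 137 genes, all lower. The 12 choroid plexus markers had the same order of WT libraries, with a summed level of 474.2, 521.7 and 326.3 CPM in KO 1 to 3, against 22857.3, 17811.4 and 5349.9 CPM in WT 1 to 3. Their part in the Cdkn1c result was not tested. Cdk2 was lower in every KO library without passing, with 62, 53 and 46 counts in KO 1 to 3, against 79, 79 and 69 counts in WT 1 to 3 and a log2 fold change of -0.47 (SE 0.21). With Cdkn1c, 2 genes of this list were lower in every KO library (8.74% of all genes) and 0 were higher (8.0% of all genes). Ccnd3 overlapped between groups, with 45.6, 48.3 and 34.8 CPM in KO 1 to 3, against 69.3, 55.0 and 45.3 CPM in WT 1 to 3 and a log2 fold change of -0.40 (SE 0.19). Cdkn2a, the p16 and p19ARF locus, had at most 1 count in each library and was not tested.

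Markers of other cell types also differed between the WT libraries in which the mitotic genes differed. The 10 markers of activated stem cells and transit-amplifying progenitors did not have the order of the mitotic genes. Their summed level was 342.0, 398.8 and 333.3 CPM in KO 1 to 3, against 465.3, 285.2 and 378.7 CPM in WT 1 to 3. Of their 10 log2 fold changes 3 were positive, against 53.4% over all genes. WT 2, highest for the mitotic genes, was the lowest of the 6 here. It was also lowest for the 10 neuroblast markers, with 837.6, 861.3 and 897.4 CPM in KO 1 to 3, against 882.7, 643.2 and 819.5 CPM in WT 1 to 3 and 6 of 10 positive.

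The 8 oligodendrocyte precursor markers too were lowest in WT 2, with 734.5, 633.1 and 583.5 CPM in KO 1 to 3, against 685.4, 555.5 and 671.4 CPM in WT 1 to 3 and 5 of 8 positive. The 10 striatal projection neuron markers were highest in WT 2 and lowest in WT 1, as the mitotic genes were, with 3792.5, 4880.1 and 4880.8 CPM in KO 1 to 3, against 559.6, 8433.2 and 2407.8 CPM in WT 1 to 3 and 10 of 10 positive. The 8 endothelial markers had that order as well, with 182.4, 224.7 and 185.6 CPM in KO 1 to 3, against 180.7, 246.1 and 207.3 CPM in WT 1 to 3 and 5 of 8 positive. Of these 8, 2 were lower in every KO library (8.74% of all genes) and 0 were higher (8.0% of all genes). DESeq2 called 1 of them (adjusted p = 0.0364), as it called 2.06% of all genes. Microglia markers were lowest in WT 1, with 590.1, 635.6 and 528.1 CPM in KO 1 to 3, against 421.0, 523.6 and 486.3 CPM in WT 1 to 3 and 10 of 10 positive. Of these 10, 4 were higher in every KO library (8.0% of all genes) and 0 were lower (8.74% of all genes). DESeq2 called 0 of them (2.06% of all genes). Ependymal markers set the groups apart as choroid plexus markers did, with 0 of 10 positive and 131.6, 117.7 and 94.4 CPM in KO 1 to 3, against 287.3, 221.3 and 194.7 CPM in WT 1 to 3. Of these 10, 8 were lower in every KO library (8.74% of all genes) and 0 were higher (8.0% of all genes). DESeq2 called 7 of them (2.06% of all genes) and edgeR called 0 (0% of all genes). Quiescent stem cell and astrocyte markers had 8 of 10 positive and 9421.6, 8824.5 and 8080.8 CPM in KO 1 to 3, against 7984.2, 6958.6 and 8767.1 CPM in WT 1 to 3. Blood markers had 5 of 5 positive and 389.4, 318.2 and 277.7 CPM in KO 1 to 3, against 255.9, 170.5 and 306.8 CPM in WT 1 to 3; both these lists, too, were lowest in WT 2. No marker of these lists was at 0 in any library, and their part in the order of the mitotic genes was not tested.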

How the data were processed

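The deposited table gives, per the file headers and the values, estimated counts and FPKM (per transcript length and library total) for 61481 RefSeq transcripts in 6 libraries. The authors' group means were not used. The submitters' processing notes name mm10 and limma 3.40.6. Which aligner, counter and annotation release the authors used is not given in the sources used here. All transcripts of an NCBI gene were added up, giving 18614 genes, and the sums were rounded. RefSeq symbols of GRCm38.p6 matched 18489, and genes without one held 0.104% to 0.140% of counts.

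Genes were tested with edgeR 4.0.16 (R 4.3.3; TMM, filterByExpr with minimum count 10, robust quasi-likelihood F test, group only, two-sided), adjusted by Benjamini-Hochberg over 15126 genes. SEs were derived from the fold change and F. Mean ± SD is over 3 libraries. DESeq2 1.42.0 and limma-voom 3.58.1 were alternatives. The procedure was tested on simulated data. Members and lists were chosen with earlier results of these data known. Named with values in each library are the D cyclins, Mki67, Top2a, Pcna, the 6 S phase and 8 G2/M members of smallest p, the 2 of highest FPKM per phase, and 3 genes per further list of smallest p; others were named after their values were seen. A library's 3 counts equal 0.162 to 0.180 CPM. Libraries of a group differed beyond sampling noise (chi-square per degree of freedom 21.7 to 32.4 between KO libraries and 44.2 to 95.4 between WT libraries). The values of 1 marker gene are not reported here.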

Additional observations from a re-analysis of the deposited data

How the results depend on the processing

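The count of genes called was 0 with edgeR under every scaling and filter tried and with limma-voom, 311 with DESeq2 (6 higher, 305 lower), and 0 to 137 with edgeR with a single library left out, the 137 without WT 3. DESeq2 with a library left out, an alternative chosen after seeing the data, called 275, 257 and 318 genes without KO 1, KO 2 and KO 3 and 139, 348 and 451 genes without WT 1, WT 2 and WT 3, and 0 to 1 members (Top2a without WT 2, Anln without KO 1). The S phase median ran from 0.01 to 0.32 and the G2/M median from -0.08 to 0.66 with a single library left out, and without Anln, also chosen after seeing the data, the G2/M median was 0.22; with limma-voom it was 0.32. With the replicate block, edgeR called 0 genes and 0 members and the medians were 0.14 and 0.29. Same-numbered libraries did not deviate together (correlations of -0.162, -0.0674 and -0.0368 over genes). Whether the numbers pair libraries is not given by the labels, and with 3 libraries per group these correlations cannot decide it. Of 326 values of 21 named members under alternatives, 12 in 6 members had the other sign. Mki67 did so with limma-voom (0.35) and the replicate block (0.25), and it ran from -0.55 to 0.89 with a library left out. Anln did so with KO 1 alone (0.50) and ran from -0.64 to 0.09 with a library left out. The other 4 did so only with a library left out: Top2a from -0.37 to 1.45, Ccnd1 from -0.03 to 0.25, Ccnd2 from -0.28 to 0.10 and Pcna from -0.06 to 0.12. The cause was not tested.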

Other observations

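The table splits some members over several RefSeq transcripts, and these estimated splits varied between libraries more than the gene totals did. Tyms was divided mainly between a curated and a predicted transcript. The curated one had 355.0, 240.9 and 499.6 counts in KO 1 to 3, against 560.0, 458.2 and 280.8 counts in WT 1 to 3. The predicted one had 361.3, 557.6 and 351.8 counts in KO 1 to 3, against 25.9, 205.7 and 394.4 counts in WT 1 to 3. Ccnd2 had a predicted transcript with 1.1, 380.8 and 314.2 counts in KO 1 to 3, against 446.3, 16.0 and 393.5 counts in WT 1 to 3. Values for both transcripts were chosen after they were seen, and neither split was tested.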
